A study of Homo sapiens with 21 samples.

Results

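RNA from ISL1-/- cells given an ISL1 vector was compared with RNA from unedited (WT) cells given a BFP vector, across all genes. The members are the libraries whose names in the sample descriptions start with the ISL1 genotype and the ISL1 vector, 3 in number, and those whose names start with WT and BFP, 2 in number. They make up 5 of the 21 libraries of the series. All came from H1, an established line of human embryonic stem cells, which was differentiated toward islets, the hormone-secreting cell clusters of the pancreas. Lentivirus carrying ISL1 joined to BFP, a blue fluorescent protein, or BFP alone, was added on day 11, and BFP-positive cells were sorted by flow cytometry on day 18. The groups therefore differ in genotype (ISL1-/- or WT) and in vector (ISL1 or BFP), and from these 5 libraries alone the part of each cannot be told apart. ISL1-/- with BFP (3 libraries) and WT with ISL1 (2 libraries) are given beside them for that reason. ISL1-/- with ISL1 and WT with ISL1 share a vector and differ in genotype. These side comparisons share libraries with the main one, so each gene's own values are given. No overlap between sets of changed genes is counted. The labels do not say how many clones the ISL1-/- cells came from, nor what promoter drives the vector. The series text calls the replicates biological. Where they were not separate cultures, p-values measure only the spread between libraries. Each library is RNA from many sorted cells, so fewer cells of a type and less RNA per cell cannot be told apart.

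ISL1 is a transcription factor with LIM domains, which bind partner proteins such as LDB1, and a homeodomain, which binds DNA. It is made in islet endocrine cells as they leave the progenitor state and is known to be needed for the differentiation of hormone-producing cells, and it also acts in motor and sensory neurons and in the heart. Glucagon comes from alpha cells, insulin and amylin from beta cells, somatostatin from delta cells, pancreatic polypeptide from PP cells and ghrelin from epsilon cells. In stem cell-derived islets, cells that resemble serotonin-producing enterochromaffin cells of the gut also arise.

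Total counts in the 5 libraries ran from 36.81 to 56.83 M (1e6 counts), with 31584 to 35050 genes detected and 1.54 to 1.87% of counts from mitochondrial genes. Libraries of the same group differed by more than counting noise. Levels are counts per M (CPM) after TMM scaling, and differences are log2 fold changes with a standard error (SE), ISL1-/- with ISL1 over WT with BFP. A gene counted as changed at a Benjamini-Hochberg adjusted p under 0.05 in edgeR's quasi-likelihood test.

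ISL1 itself is the check on the labels. ISL1 counts stood at 71.6, 85.1 and 96.8 CPM in the 3 libraries of ISL1-/- with ISL1 and at 306 and 519 CPM in WT with BFP, without overlap. The log2 fold change of ISL1 was -2.29 (SE 0.39, adjusted p 0.00231), and without WT with BFP replicate 3 the adjusted p was 0.0505. The mean was 76.9 ± 4.79 CPM (SD, n = 3) in ISL1-/- with BFP and 349 ± 16.9 CPM (SD, n = 2) in WT with ISL1. The ISL1 counts separated the genotypes but not the vectors: between the vectors ISL1 differed by 0.13 on the log2 scale (SE 0.35) within ISL1-/-, and in WT its mean was lower in the libraries labelled with ISL1 than in those labelled with BFP. Whether RNA made from the vector would be counted under ISL1 is not given in the sources used here, so these counts do not check the vector label, and every direction below rests on the labels for it. The part of the gene that was edited is not given either, so RNA still counted in ISL1-/- libraries does not speak to protein.

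Of 25884 genes tested, 1772 changed, which is 6.85% of them. There were 653 genes that were higher in ISL1-/- with ISL1 (2.52% of all tested) and 1119 that were lower (4.32%). The median size of the change was 1.61 on the log2 scale, and 203 of the higher genes and 445 of the lower genes changed by more than 2 on that scale. With the same vector in both genotypes, ISL1-/- with ISL1 against WT with ISL1, 962 genes changed (3.72%). Scaling by library totals in place of TMM moved the median of all genes from 0.039 to 0.263 and the share of higher genes among those changed from 36.9% to 57.1%. Leaving out WT with BFP replicate 3 lowered the number of changed genes to 366, and leaving out PAX6-/- with ISL1 replicate 3 and PDX1-/- with ISL1 replicate 4, which had more mitochondrial counts than the others and only lend their spread to the model, raised it to 7751 (28.4%).

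**Figure D1:**
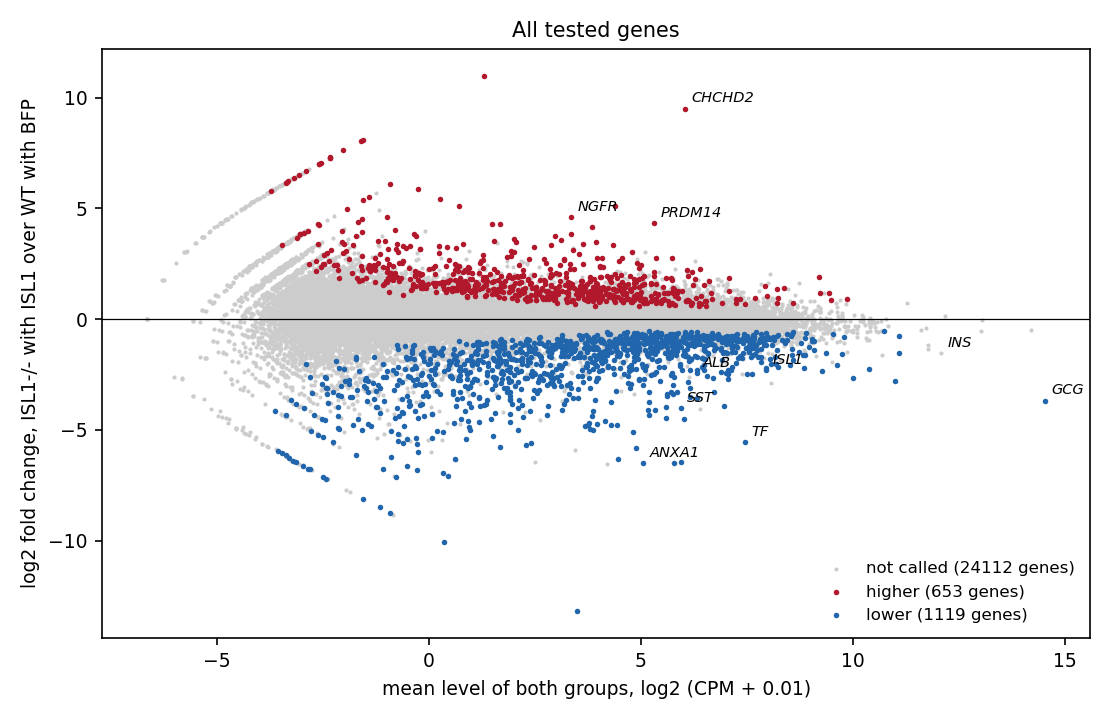
Each point is 1 of the 25884 tested genes. The x axis is the mean level of both groups as log2 (CPM + 0.01), and the y axis is the log2 fold change of ISL1-/- with ISL1 (n = 3) over WT with BFP (n = 2). Red points are the 653 genes called higher, blue points the 1119 called lower and grey points the rest, with CHCHD2 the named gene farthest above 0 and GCG the named gene with the highest level.

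The gene lists held 527 genes in 32 groups, of which 511 were tested, 37 were higher and 63 were lower (19.6% changed). The lists were chosen with earlier results of these data known, so this share is a description and is not independent evidence of a direction. The median log2 fold change of each list below can be set beside 0.039 over all genes.

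**Figure D2:**
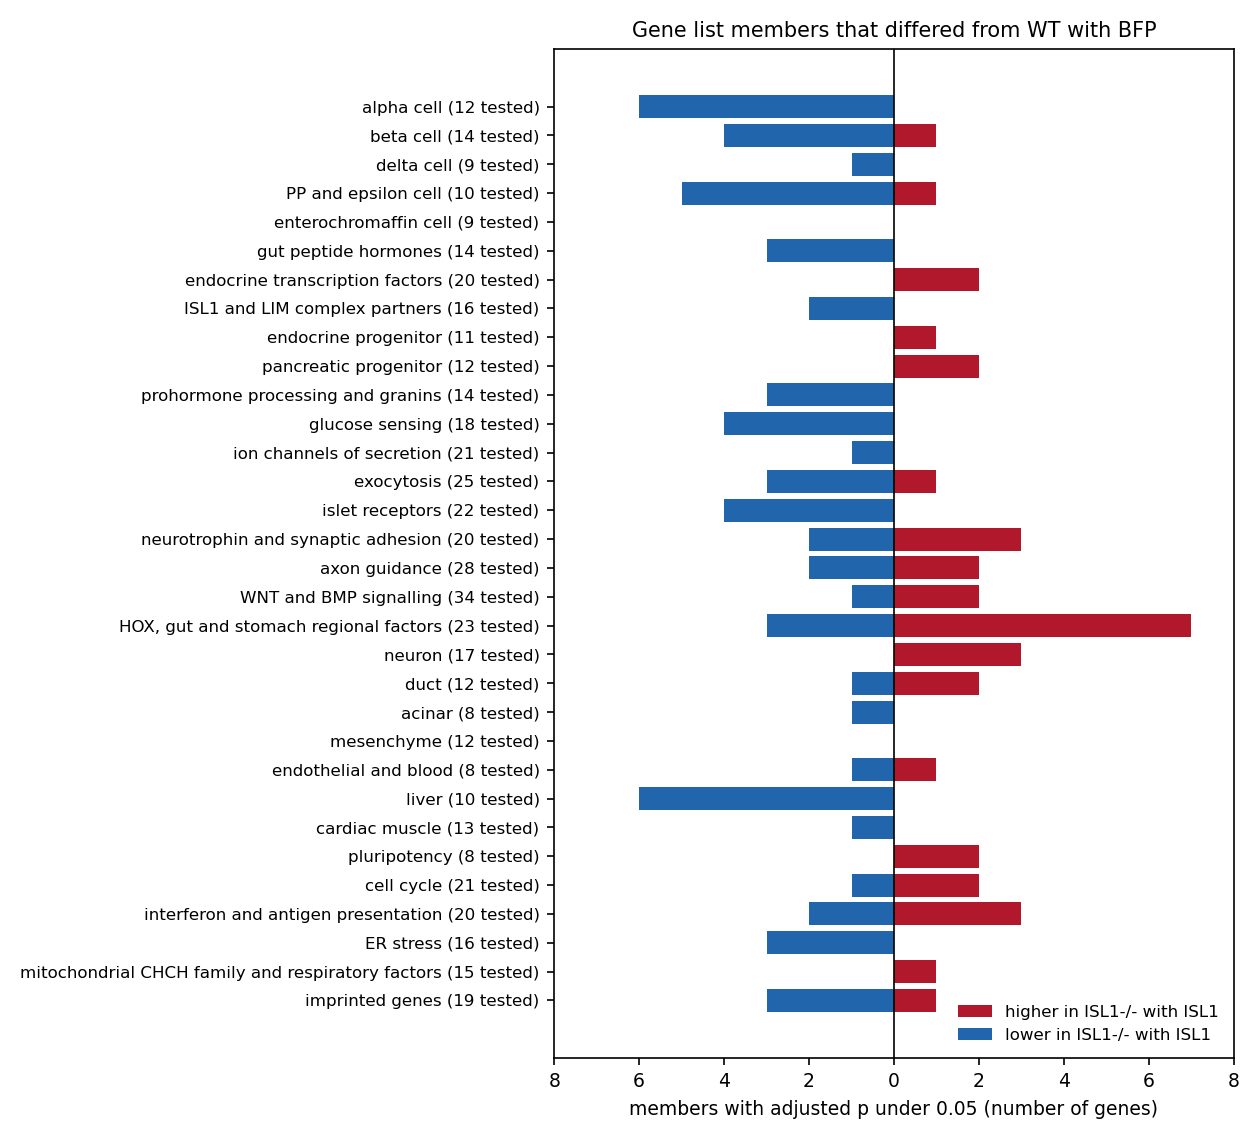
Bars give the number of list members with an adjusted p under 0.05, to the right where higher in ISL1-/- with ISL1 and to the left where lower than in WT with BFP, with the number of members tested in parentheses. The liver and alpha cell lists had 6 lower members each, and the regional factor list had 7 higher members.

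Among the hormone genes GCG, SST, PYY, PPY and IAPP fell, and INS and GHRL did not pass the test. GCG encodes glucagon and was the named gene with the highest level in WT. It stood at 2197, 2689 and 5362 CPM in ISL1-/- with ISL1 and at 36246 and 51317 CPM in WT with BFP. No library of ISL1-/- with ISL1 came near the WT range, and the mean of 3416 ± 1703 CPM (SD, n = 3) was 12.8-fold below the WT mean of 43781 ± 10657 CPM (SD, n = 2). On the log2 scale GCG fell by 3.68 (SE 0.94, adjusted p 0.0245). In ISL1-/- with BFP the mean was 83.5 CPM, so GCG was far above the knockout without ISL1 and still far below WT. SST, which encodes somatostatin, showed the same order of levels. Its values were 4.15, 5.82 and 11.5 CPM in ISL1-/- with ISL1, 92.7 and 138 CPM in WT with BFP, and 0.507 CPM on average in ISL1-/- with BFP. SST fell by 4.01 (SE 0.87, adjusted p 0.00991). INS, which encodes insulin, stood at 1894, 2352 and 2472 CPM against 7185 and 5651 CPM in WT with BFP. The groups did not overlap, but the log2 fold change of -1.52 (SE 0.94) did not pass the test (adjusted p 0.369). Of 13 alternative fits that kept all 5 libraries, 6 called INS lower. They included limma voom (adjusted p 0.00118) and the fit of the 5 libraries alone, but not DESeq2 (adjusted p 0.368). The mean INS level was 2115 CPM in ISL1-/- with BFP, close to the 2239 CPM of ISL1-/- with ISL1, unlike GCG and SST.

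The sequences before the start sites of these hormone genes are shown because ISL1's homeodomain belongs to a class that recognises a TAAT core, and the 3 genes stood at different places between knockout and WT. They are from RefSeq on GRCh38.p14, 250 bases each and 5′ to 3′ on the gene's strand, with TAAT on either strand (so TAAT or ATTA) in capitals. The windows are GCG at chr2:162152248-162152497, SST at chr3:187670395-187670644 and INS at chr11:2161210-2161459, all on the minus strand.
GCG: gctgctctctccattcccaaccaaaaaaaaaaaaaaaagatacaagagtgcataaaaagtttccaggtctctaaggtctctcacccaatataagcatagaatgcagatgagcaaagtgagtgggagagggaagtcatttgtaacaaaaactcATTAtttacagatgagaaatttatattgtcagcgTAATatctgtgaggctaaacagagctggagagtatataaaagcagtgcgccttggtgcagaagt
SST: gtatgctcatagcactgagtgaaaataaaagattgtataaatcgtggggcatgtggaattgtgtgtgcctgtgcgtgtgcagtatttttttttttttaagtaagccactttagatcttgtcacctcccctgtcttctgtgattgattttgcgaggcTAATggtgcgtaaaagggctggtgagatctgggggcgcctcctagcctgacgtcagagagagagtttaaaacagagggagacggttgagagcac
INS: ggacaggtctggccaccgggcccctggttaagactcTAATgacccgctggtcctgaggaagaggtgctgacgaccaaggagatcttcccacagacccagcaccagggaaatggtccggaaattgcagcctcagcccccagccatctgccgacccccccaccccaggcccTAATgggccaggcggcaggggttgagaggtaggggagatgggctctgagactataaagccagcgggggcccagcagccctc
TAAT occurred in 48.2% of 27305 windows of this length in the table. Of tested genes with a window, 36.2% of 14750 held it, as did 33.1% of 393 called higher and 43.1% of 798 called lower. The E-box letters CANNTG, which read the same on both strands, occurred in the GCG, SST and INS windows 3, 1 and 1 times and in 62.2% of all windows. The windows of PYY, PPY and GHRL, read in the same way, held 0 TAAT, and both IAPP windows held it. A match is a run of letters and not a site of binding.

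With the ISL1 vector in both genotypes, GCG differed by -3.26 (adjusted p 0.0585), SST by -4.42 (adjusted p 0.00854) and INS by -1.77 (adjusted p 0.37). The GCG call was lost in each fit that left out 1 of the 5 libraries (adjusted p up to 0.134), and the SST call was lost without ISL1-/- with ISL1 replicate 1 or 2 or WT with BFP replicate 3 (up to 0.073). Without the 2 libraries of high mitochondrial share named above, 28.4% of all tested genes changed. In that fit the lists of alpha, beta, delta and PP or epsilon cells had 9, 6, 5 and 8 lower members.

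**Figure D3:**
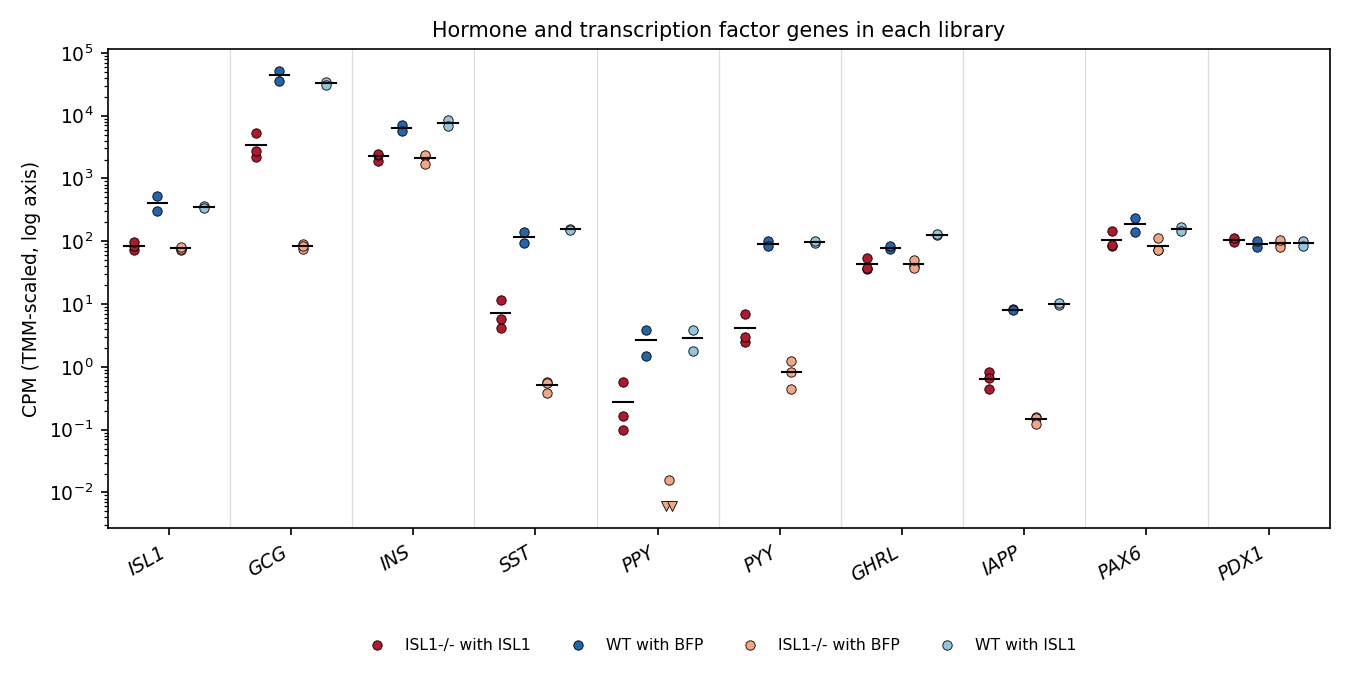
CPM after TMM scaling on a log axis for hormone and transcription factor genes, with 1 point per library, a bar at each group mean, and triangles near the bottom for libraries with a value of 0. ISL1-/- with ISL1 lies between ISL1-/- with BFP and WT for GCG, SST, PPY, PYY and IAPP, while for INS and ISL1 both ISL1-/- groups lie together.

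The alpha cell list had 6 lower members and none higher of 12 tested, with a median log2 fold change of -1.24. GCG accounted for most of its summed level, which was 4810 to 8588 CPM in ISL1-/- with ISL1 and 44380 to 59490 CPM in WT with BFP. LOXL4, a lysyl oxidase-like enzyme, stood at 7.5, 7.36 and 9.56 CPM against 74.3 and 105 CPM and fell by 3.46 (SE 0.55, adjusted p 0.00124). TTR, the thyroid hormone carrier transthyretin, stood at 473, 510 and 575 CPM against 3803 and 3295 CPM and fell by 2.77 (SE 0.67, adjusted p 0.0189). DPP4, the peptidase that inactivates incretins, fell by 2.67 from a mean of 1766 to 277 CPM. PCSK2, the convertase that releases glucagon from its precursor, fell by 0.91 from a mean of 264 to 140 CPM, a much smaller drop than that of GCG. IRX2, an alpha cell transcription factor, had a log2 fold change of -0.7 that did not pass (adjusted p 0.213). LOXL4 held its call without any 1 of the 5 libraries, while TTR lost its in each such fit (up to 0.0946), DPP4 lost it without ISL1-/- with ISL1 replicate 3 or either WT library (0.063) and PCSK2 without ISL1-/- with ISL1 replicate 1 or 2 or WT with BFP replicate 3 (0.345). The list's count was 1 or 2 across these fits and 4 with library totals.

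The beta cell list had 1 higher and 4 lower members of 14, with a median of -0.28. IAPP, which encodes amylin, stood at 0.442, 0.831 and 0.666 CPM against 8.24 and 7.92 CPM and fell by 3.64 (SE 0.87, adjusted p 0.018). G6PC2, an islet glucose-6-phosphatase, stood at 7.69, 11.9 and 9.38 CPM against 87.6 and 104 CPM and fell by 3.31 (SE 0.84, adjusted p 0.0267). Both were lower still in ISL1-/- with BFP, at 0.147 and 1.21 CPM. ERO1B, an oxidase of the endoplasmic reticulum that helps proinsulin fold, fell by 2.06 (SE 0.28, adjusted p 0.000544), from a mean of 1276 to 307 CPM, and stood at 130 CPM in ISL1-/- with BFP. SLC30A8, the zinc transporter of insulin granules, fell by 1.82 from 409 to 116 CPM. SIX3, a factor of mature human beta cells, was the higher member, at 2.95, 2.03 and 2.56 CPM against 0.308 and 0.786 CPM, a rise of 2.22 (adjusted p 0.00991). PDX1, a regulator of pancreas and beta cells, stood at 105, 95.6 and 114 CPM against 80 and 102 CPM, and its log2 fold change of 0.21 (SE 0.23) did not pass (adjusted p 0.661). PAX6, which is needed for islet hormone genes, stood at 83.9, 86.7 and 144 CPM against 140 and 232 CPM and did not pass either, at -0.83 (SE 0.45, adjusted p 0.29). ERO1B and SLC30A8 kept their calls without any 1 of the 5 libraries, IAPP and G6PC2 lost theirs in each such fit (up to 0.084 and 0.134) and SIX3 lost its without WT with BFP replicate 1 (0.161). For IAPP and G6PC2 an antisense gene lies over part of the gene (SLCO1A2 and SPC25) at more than 10% of its level, and the strand setting of the counting is not given.

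SST was the single lower member of the delta cell list, of 9 tested, with a median of -0.84. HHEX, the delta cell transcription factor, stood at 34.6, 34.1 and 26.1 CPM against 26.3 and 27.9 CPM in WT with BFP, a log2 fold change of 0.22 (SE 0.31) that did not pass (adjusted p 0.741). Its mean was 5.07 CPM in ISL1-/- with BFP and 96.8 CPM in WT with ISL1, so HHEX stood near its level in WT with BFP, and with the ISL1 vector in both genotypes its log2 fold change was -1.61 (adjusted p 0.00643). In the PP and epsilon cell list 1 of 10 members was higher and 5 were lower, with a median of -1.15. PYY, a peptide of PP and gut endocrine cells, stood at 2.47, 2.99 and 6.86 CPM against 99.9 and 83.7 CPM and fell by 4.48 (SE 0.92, adjusted p 0.00761). PPY, pancreatic polypeptide, stood at 0.166, 0.0997 and 0.576 CPM against 1.47 and 3.84 CPM and fell by 3.23 (adjusted p 0.048). Both kinds of library hold few PPY counts, and the call was lost with DESeq2, with library totals and in 4 of the 5 fits that left out a library, those without ISL1-/- with ISL1 replicate 1 or 2 or either WT library (up to 0.363). AQP3, a water channel, fell by 1.94, and ETV1, a transcription factor, by 1.14 (lost without WT with BFP replicate 3, adjusted p 0.168). MEIS2, a homeodomain factor, rose by 1.18 from 24.7 to 56.1 CPM and stood at 60.6 CPM in WT with ISL1 (call lost without WT with BFP replicate 3, 0.157). GHRL, which encodes ghrelin, stood at 35.8, 37.3 and 55 CPM against 74.5 and 83.6 CPM and did not pass (-0.89, SE 0.58, adjusted p 0.392).

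Markers of enterochromaffin cells did not pass the test in any of 9 tested members, with 2 at an unadjusted p under 0.05, none by DESeq2 and 2 higher by limma voom. TPH1, which makes serotonin, stood at 51.6, 67.2 and 85 CPM against 29.2 and 56.6 CPM (adjusted p 0.484), and at 181 CPM in ISL1-/- with BFP. FEV, a factor of serotonin cells and of endocrine precursors, stood at 514 CPM against 418 CPM, and at 1100 CPM in ISL1-/- with BFP. LMX1A stood at 114 against 91 CPM, and at 303 CPM in ISL1-/- with BFP. For TPH1, FEV and LMX1A, ISL1-/- with ISL1 was nearer to WT with BFP than to the knockout with BFP. FEV is on the alpha cell list. SLC18A1, of the enterochromaffin list, did not pass (1.04, adjusted p 0.203) and was called higher in 6 of 13 alternative fits. With the ISL1 vector in both genotypes, 2 of the 9 tested members were higher and none lower. Among 14 gut peptide hormones 3 were lower: CRH, corticotropin-releasing hormone, fell by 3.1 from 25.1 to 2.92 CPM, GNRH2 by 3.03 and ADM, adrenomedullin, by 1.71. GAST, gastrin, had a log2 fold change of -2.46 that did not pass (adjusted p 0.11). GNRH2 was lost in each fit without 1 of the 5 libraries (adjusted p up to 0.4), CRH without ISL1-/- with ISL1 replicate 1 or 2 or either WT library (0.12), and ADM without ISL1-/- with ISL1 replicate 2 or 3 or either WT library (0.197).

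On the list of endocrine transcription factors, SOX11 and SOX4 were higher of 20 tested and none was lower, with a median of 0.06. This holds for that list only. Among factors on other lists, ISL1 and ETV1 were lower and SIX3, MEIS2 and ONECUT1 higher. By limma voom, which called 33.4% of all tested genes, 4 of the 20 were higher and 4 lower. SOX11, a factor of immature neurons and endocrine progenitors, stood at 29.3, 26.7 and 24.9 CPM against 10.6 and 9.85 CPM and rose by 1.4 (SE 0.19, adjusted p 0.000562). SOX4, its relative, which is needed for endocrine differentiation, stood at 517, 466 and 457 CPM against 288 and 284 CPM and rose by 0.75 (SE 0.19, adjusted p 0.024). NEUROD1, a factor of all islet endocrine cells, stood at 493, 553 and 644 CPM against 766 and 1103 CPM and did not pass (-0.73, adjusted p 0.323). NEUROG3, the factor that starts endocrine differentiation, stood at 254, 267 and 303 CPM against 117 and 178 CPM and did not pass (0.9, adjusted p 0.135). Of 16 LIM-domain genes and partners of ISL1, LMO2 and ISL1 itself were lower. LMO2, a LIM-only protein that binds LDB1, stood at 4.31, 5.87 and 8.34 CPM against 39.5 and 51.3 CPM and fell by 2.88 (SE 0.45, adjusted p 0.00113), with 1.38 CPM in ISL1-/- with BFP. LDB1, the partner that joins LIM factors into complexes, stood at 27.3 against 18.3 CPM and did not pass (0.58, adjusted p 0.0838). Among progenitor lists, NKX6-3 was the single higher member of 11 endocrine progenitor genes, and ONECUT1 and NKX6-2 were higher of 12 pancreatic progenitor genes, with a median of 0.63. ONECUT1, a factor upstream of NEUROG3, stood at 42.7, 42.1 and 32.6 CPM against 14.2 and 11.8 CPM and rose by 1.59 (adjusted p 0.0114). SOX11 and LMO2 kept their calls without any 1 of the 5 libraries, SOX4 and NKX6-3 lost theirs in each such fit (up to 0.201 and 0.395), ONECUT1 without either WT library (0.159) and NKX6-2 without ISL1-/- with ISL1 replicate 2 or 3 or WT with BFP replicate 3 (0.231). NKX6-2 lies within INPP5A on the other strand, which had far more counts.

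Of 14 genes for prohormone processing and granins 3 were lower, with a median of -0.68, and without WT with BFP replicate 3 the count was 0 with a median of -0.5. CPE, the carboxypeptidase that trims prohormones, stood at 376, 442 and 466 CPM against 1122 and 1425 CPM and fell by 1.57 (SE 0.29, adjusted p 0.00388). SCG2, secretogranin II, fell by 1.26 from 706 to 294 CPM and CHGB, chromogranin B, by 1.05 from 255 to 123 CPM. CHGA, chromogranin A, the general endocrine marker, stood at 13398, 14113 and 19888 CPM against 19725 and 24048 CPM. The CHGA groups overlapped and the difference of -0.47 did not pass (adjusted p 0.458). Of 18 genes of glucose sensing, 4 were lower. SLC2A2, the glucose transporter GLUT2, stood at 4.48, 4.8 and 3.78 CPM against 25.7 and 29.1 CPM and fell by 2.65 (SE 0.49, adjusted p 0.00395), but its mean was 6.75 CPM in WT with ISL1, where the difference did not pass (-0.63, adjusted p 0.589). SLC2A3, the transporter GLUT3, fell by 2.17 (SE 0.22, adjusted p 4.06e-05) from 54.1 to 12 CPM, and ME1, the cytosolic malic enzyme, by 1.31. G6PC1, a liver glucose-6-phosphatase, had under 2 CPM in every library. SLC2A2, SLC2A3 and ME1 kept their calls without any 1 of the 5 libraries, CPE lost its without WT with BFP replicate 3 (0.0653), SCG2 without ISL1-/- with ISL1 replicate 1 or either WT library (0.124), G6PC1 without any 1 of the ISL1-/- with ISL1 libraries or WT with BFP replicate 1 (0.437) and CHGB in each fit (0.287).

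The ion channel, exocytosis and receptor lists had 1, 3 and 4 lower members of 21, 25 and 22 tested, and 0, 1 and 0 higher. Over all tested genes 4.32% were lower and 2.52% higher. KCNK16, the potassium channel TALK-1, was the single one lower of 21 ion channel genes, at 137, 180 and 176 CPM against 416 and 439 CPM (fell by 1.38, SE 0.2, adjusted p 0.000804). ABCC8 and KCNJ11, the subunits of the channel that couples glucose to secretion, did not pass (-0.41 and -0.45, adjusted p 0.451 and 0.204). Of 25 exocytosis genes, DOC2B, a calcium sensor, was higher and SYT16, SYT14 and EXOC6 were lower. GPR119, a lipid receptor of islet cells, stood at 36.3, 41.4 and 42 CPM against 199 and 249 CPM and fell by 2.49 (SE 0.27, adjusted p 7.53e-05). Its mean was 10.5 CPM in ISL1-/- with BFP and 226 CPM in WT with ISL1. Of 22 islet receptors, 4 were lower. PTGER4, a prostaglandin receptor, fell by 1.95 and FFAR4, a fatty acid receptor, fell by 1.88. GLP1R and GIPR, the incretin receptors, did not pass (-0.47 and -0.42, adjusted p 0.574 and 0.535). KCNK16 and GPR119 kept their calls without any 1 of the 5 libraries, while PTGER4 lost its without WT with BFP replicate 1 (0.0737), DOC2B without ISL1-/- with ISL1 replicate 3 or either WT library (0.182), SYT16 without ISL1-/- with ISL1 replicate 1 or WT with BFP replicate 3 (0.279), SYT14 without ISL1-/- with ISL1 replicate 1 or 3 or WT with BFP replicate 3 (0.457), and FFAR4 and EXOC6 in each fit (0.395 and 0.234). TTC33 over PTGER4 and RBP4 over FFAR4 are antisense genes with more counts.

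The largest rises by the naming rule fell into different patterns across the 4 groups. CHCHD2, which encodes a protein of the mitochondrial intermembrane space (chr7:56101573-56106476), had 7089, 8258 and 7141 counts in ISL1-/- with ISL1 and 7 in each library of WT with BFP. That is 131, 137 and 129 CPM against 0.154 and 0.212 CPM, a log2 rise of 9.5 (SE 0.9, adjusted p 1.98e-05). It stood at 141 CPM in ISL1-/- with BFP and 0.136 CPM in WT with ISL1, so it separated the genotypes with either vector. Of the 15 mitochondrial genes on its list it was the single one that changed, and CHCHD10, its relative, stood at 16.1 against 18.9 CPM.

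NGFR, the p75 neurotrophin receptor, and NEUROG1, a factor that starts sensory neuron differentiation, were also high in both ISL1-/- groups. NGFR stood at 15.9, 13.2 and 29.7 CPM against 1.12 and 0.453 CPM and rose by 4.61 (SE 0.92, adjusted p 0.00666). NEUROG1 stood at 18.9, 15.4 and 23.1 CPM against 1.03 and 1.63 CPM and rose by 3.85 (SE 0.81, adjusted p 0.00874). Their means were 16.4 and 14.6 CPM in ISL1-/- with BFP and 1.3 and 1.52 CPM in WT with ISL1. Both also differed with the ISL1 vector in both genotypes, by 3.91 and 3.66 (adjusted p 0.0182 and 0.0158). Each lost its call in the main comparison without WT with BFP replicate 1 or replicate 3 (up to 0.116 and 0.119).

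PRDM14 and VSIG1 followed the vector label in place of the genotype. PRDM14, a regulator of pluripotent and germ cells, stood at 87.6, 76.9 and 62.8 CPM against 3.23 and 4.2 CPM and rose by 4.35 (SE 0.75, adjusted p 0.00262). VSIG1, an adhesion protein of stomach epithelium, stood at 29.4, 28.5 and 24.1 CPM against 1.69 and 1.33 CPM and rose by 4.17 (SE 0.6, adjusted p 0.000702). In WT with ISL1 the means were 58.8 and 32 CPM, and in ISL1-/- with BFP they were 2.99 and 1.68 CPM. With the ISL1 vector in both genotypes the differences were 0.37 and -0.23 and did not pass (adjusted p 0.856 and 0.898). SLC4A4, a bicarbonate transporter of duct cells, had the same order of means: 48.8 CPM against 5.99 CPM, with 6.78 CPM in ISL1-/- with BFP and 65.2 CPM in WT with ISL1. PRDM14 lost its call without WT with BFP replicate 1 (0.0514) and SLC4A4 without either WT library (0.101), while VSIG1 kept it without any 1 of the 5 libraries.

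WFIKKN1, CYP1B1, SOX21 and NPTX1 were highest in ISL1-/- with ISL1. WFIKKN1, a secreted protease inhibitor that binds myostatin, stood at 23.1, 24 and 21 CPM against 2.24 and 2.03 CPM, and at 9.14 CPM in ISL1-/- with BFP and 5.86 CPM in WT with ISL1. It rose by 3.41 (SE 0.47, adjusted p 0.000544). CYP1B1, a cytochrome P450 enzyme, stood at 29, 27.9 and 28.3 CPM against 3.14 and 1.93 CPM and rose by 3.48. SOX21, a neural and foregut factor, rose by 3.74 from 1.08 to 14.6 CPM, and NPTX1, a neuronal pentraxin, by 3.59 from 1.33 to 16.1 CPM. WFIKKN1 kept its call without any 1 of the 5 libraries, SOX21 and CYP1B1 lost theirs without WT with BFP replicate 3 (0.0824 and 0.0741) and NPTX1 in each such fit (0.268). SOX21-AS1 and RMDN2 overlap SOX21 and CYP1B1 on the other strand, and RAB40C overlaps WFIKKN1 on the same strand with more counts.

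**Figure D4:**
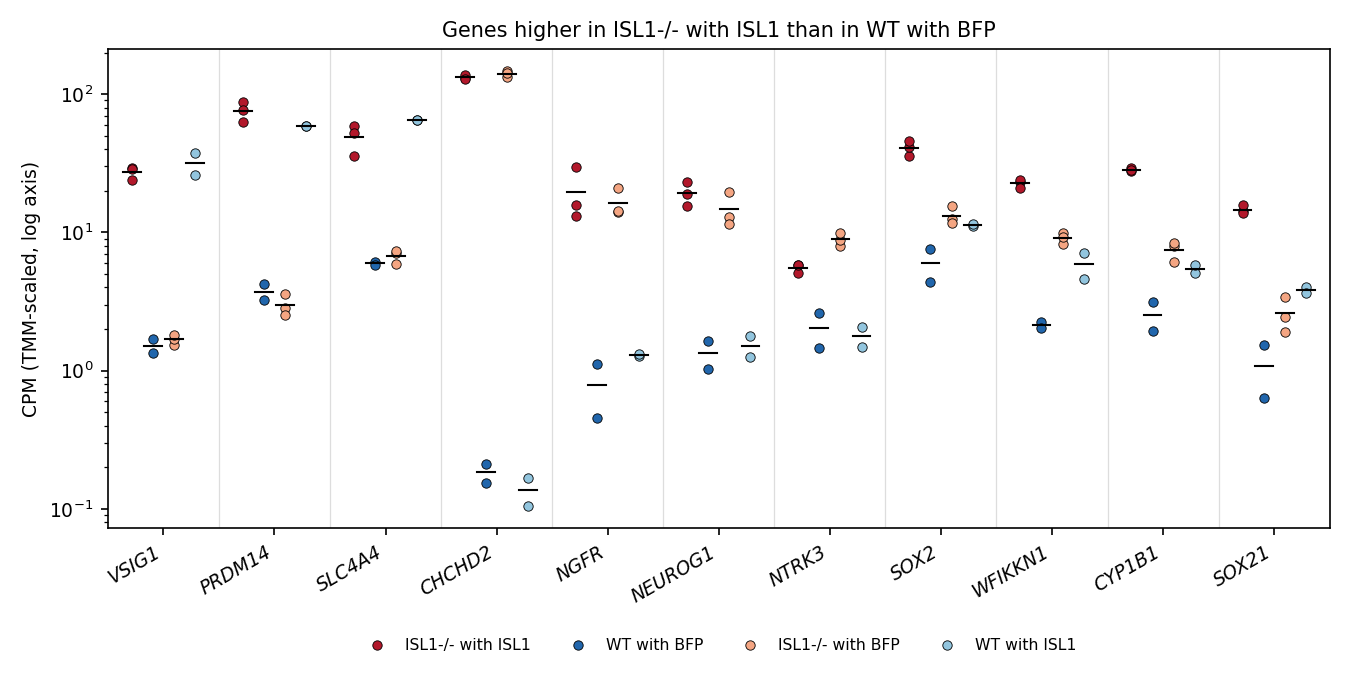
CPM after TMM scaling on a log axis for 11 genes that were higher in ISL1-/- with ISL1 than in WT with BFP, with 1 point per library and a bar at each group mean. VSIG1, PRDM14 and SLC4A4 are high in both groups labelled with ISL1, CHCHD2, NGFR, NEUROG1 and NTRK3 in both ISL1-/- groups, and SOX2, WFIKKN1, CYP1B1 and SOX21 are highest in ISL1-/- with ISL1.

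Among the 10 largest falls, 3 were near 0 in the ISL1-/- cells with either vector and at a similar level in both WT groups. LINC02864, a long noncoding RNA gene (chr18:73151241-73264480), had 0 counts in all 3 libraries of ISL1-/- with ISL1 and 962 and 783 counts in WT with BFP, so it was at least 422-fold lower, taking 3 counts per library as the limit that a count of 0 allows (adjusted p 0.00577). TSPYL5, a gene of the nucleosome assembly protein family, stood at 0.737, 0.565 and 0.342 CPM against 42.5 and 44.3 CPM and fell by 6.3 (SE 0.74, adjusted p 0.000182). ZNF585A, a zinc finger gene, stood at 0.24, 0.0499 and 0.36 CPM against 9.96 and 10.9 CPM and fell by 5.58 (SE 0.52, adjusted p 1.7e-05). In WT with ISL1 the means of these genes were 20, 47.9 and 11.4 CPM, and in ISL1-/- with BFP they were 0.0288, 0.208 and 0.164 CPM. NLRP2, an inflammasome gene and a member of the imprinted list, had the same pattern at a lower level, 3.81 CPM in WT with BFP and 0.115 CPM in ISL1-/- with ISL1. All 4 kept their calls without any 1 of the 5 libraries. ZNF420 and NLRP7 overlap ZNF585A and NLRP2 on the other strand.

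The other 7 of the largest falls encode proteins of different functions, and each was lower in ISL1-/- with ISL1 than in ISL1-/- with BFP by mean level. LCP1, an actin-bundling protein, stood at 1.66, 1.58 and 0.972 CPM against 116 and 128 CPM and fell by 6.44 (SE 0.91, adjusted p 0.000668). AREG, a ligand of the EGF receptor, stood at 2.06, 0.964 and 0.648 CPM against 114 and 105 CPM and fell by 6.48 (SE 1.2, adjusted p 0.00404). ANXA1, an annexin, fell by 6.5, from values of 88.8 and 42.9 CPM to a mean of 0.725 CPM (adjusted p 0.0138). TF, transferrin, the iron carrier of plasma, stood at 8.79, 6.65 and 6.63 CPM against 249 and 442 CPM and fell by 5.55 (SE 0.31, adjusted p 3.51e-08). SLC51B, a subunit of the bile acid exporter, fell by 5.11 from 55 to 1.59 CPM. CA3, a carbonic anhydrase, fell by 5.81 from 58.3 to 1.04 CPM, and NPPB, B-type natriuretic peptide, fell by 4.99 from 28.2 to 0.884 CPM. CA3 and NPPB stood at 12 and 4.18 CPM in WT with ISL1, and with that vector in both genotypes their differences were -3.54 and -2.24 and did not pass (adjusted p 0.051 and 0.296). ANXA1 lost its call without any 1 of the ISL1-/- with ISL1 libraries or WT with BFP replicate 1 (0.0692) and NPPB without any 1 of the ISL1-/- with ISL1 libraries or WT with BFP replicate 3 (0.126), while LCP1, AREG, TF, SLC51B and CA3 kept theirs in all 5 fits. SRPRB overlaps TF on the same strand at a similar level.

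**Figure D5:**
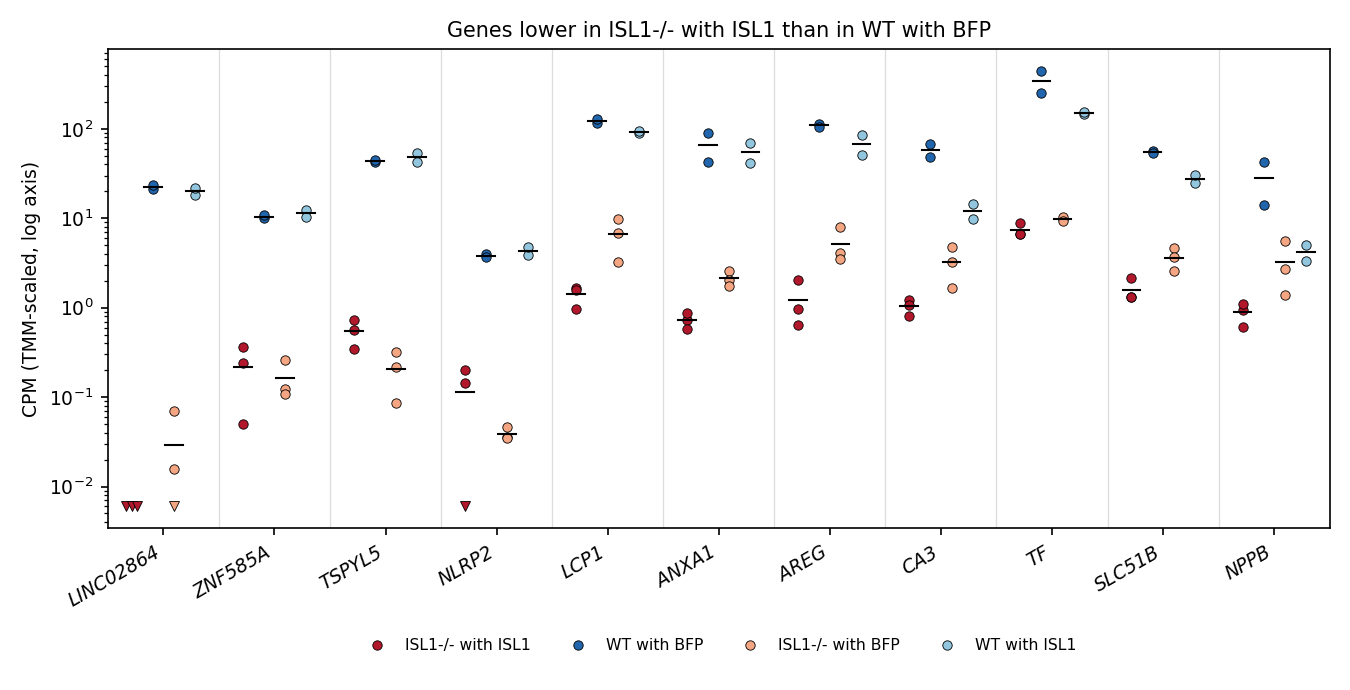
CPM after TMM scaling on a log axis for the 10 genes with the largest fall by the naming rule and NLRP2, with 1 point per library, a bar at each group mean, and triangles near the bottom for libraries with a value of 0. LINC02864, ZNF585A, TSPYL5 and NLRP2 are near 0 in both ISL1-/- groups and at similar means in both WT groups, while CA3 and NPPB are lower in WT with ISL1 than in WT with BFP by mean level.

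Of 20 genes of neurotrophin signalling and synaptic adhesion, 3 were higher and 2 were lower. NGFR, given above, was 1 of the higher members. NTRK3, a neurotrophin receptor kinase, stood at 5.77, 5.07 and 5.85 CPM against 1.45 and 2.6 CPM and rose by 1.46 (SE 0.34, adjusted p 0.0158). It stood at 8.9 CPM in ISL1-/- with BFP and 1.77 CPM in WT with ISL1. CNTN1 and NRXN3, adhesion proteins of axons and synapses, fell by 1.79 and 1.4. Of 28 axon guidance genes, UNC5D and its ligand NTN1 were higher, by 1.24 and 0.97, and EPHA3 and SEMA3D lower, by 2.64 and 2.17. Of 17 neuron markers, 3 were higher and none lower. POU4F1, a factor of sensory neurons, stood at 0.885, 0.781 and 0.792 CPM against 0.176 and 0.151 CPM and rose by 2.3 (adjusted p 0.0112), and TUBB3, the neuronal tubulin, rose from 2.13 to 6.9 CPM. The summed level of the neuron list was nevertheless 551.5 to 653.9 CPM in ISL1-/- with ISL1 and 699.6 to 911.2 CPM in WT with BFP, and its median log2 fold change was -0.45. NTRK3 and EPHA3 lost their calls without WT with BFP replicate 1 (0.216 and 0.138), POU4F1 without either WT library (0.131), UNC5D without ISL1-/- with ISL1 replicate 3 or either WT library (0.216), SEMA3D without ISL1-/- with ISL1 replicate 1 or 2 or WT with BFP replicate 1 (0.265), NTN1 without ISL1-/- with ISL1 replicate 1 or 3 or either WT library (0.223), TUBB3 without ISL1-/- with ISL1 replicate 2 or 3 or either WT library (0.217), and CNTN1 and NRXN3 in each fit (0.249 and 0.169).

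Of 23 regional factors of the foregut and body axis tested, 7 were higher and 3 lower, and without WT with BFP replicate 3 these counts were 1 and 0. SOX2, a factor of pluripotent cells and of stomach and foregut epithelium, stood at 35.5, 41.3 and 46 CPM against 4.4 and 7.59 CPM and rose by 2.78 (SE 0.49, adjusted p 0.00284). OSR1, a mesoderm and foregut factor, stood at 62.4, 56 and 74.1 CPM against 14.2 and 14.9 CPM and rose by 2.14 (SE 0.38, adjusted p 0.00282). HOXA3 rose by 2.03 from 8.25 to 33.7 CPM, while HOXB2 fell by 2.33 from 43.8 to 8.69 CPM and HOXB3 by 2.11 from 5.03 to 1.17 CPM. HOX genes mark position along the body axis, and HOXA3 moved in the opposite direction to HOXB2 and HOXB3. HOXB2 stood at 8.67 CPM in ISL1-/- with BFP and 55.4 CPM in WT with ISL1. HOXA3 stood at 19.9 CPM in WT with ISL1, and did not pass with the same vector (adjusted p 0.367). SOX2 lost its call without WT with BFP replicate 1 (0.0615), OSR1 and HOXA3 without WT with BFP replicate 3 (0.0503 and 0.166), HOXB3 without ISL1-/- with ISL1 replicate 1 or 2 or either WT library (0.24) and HOXB2 in each fit (0.164). HOXA3 and HOXB3 overlap neighbouring or antisense genes, so reads could be assigned to either. The WNT and BMP list had 2 higher and 1 lower members of 34 tested, against 2.52% and 4.32% of all tested genes. Of 34 WNT and BMP genes, BMP2, a signalling ligand, fell by 2.42 from 217 to 40.6 CPM in all 5 fits, BMP7 rose by 1.63 (lost without either WT library, 0.116), and CHRDL1, a BMP antagonist, rose by 3.53 (lost without ISL1-/- with ISL1 replicate 1 or 2 or either WT library, 0.226).

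Markers of other cell types were examined because the sort was for BFP and not for a cell type. Liver markers were lower in 6 of 10 tested members and higher in none, with a median of -2.08. ALB, albumin, stood at 26.9, 32.5 and 14.9 CPM against 160 and 108 CPM and fell by 2.43 (SE 0.43, adjusted p 0.00281). FGA, fibrinogen alpha, fell by 2.25 from 2202 to 463 CPM, APOA2, an apolipoprotein, by 2.36, SERPINA1, antitrypsin, by 1.71, and AHSG, fetuin-A, by 4.14. AFP, alpha-fetoprotein, stood at 2422, 2263 and 1698 CPM against 4266 and 5417 CPM and did not pass (-1.19, adjusted p 0.0655). The summed level of the list was 6435 to 8895 CPM in ISL1-/- with ISL1, 18270 to 20760 CPM in WT with BFP, 7134 to 10300 CPM in ISL1-/- with BFP and 10690 to 12850 CPM in WT with ISL1. TTR of the alpha cell list and SLC2A2 of the glucose list are made by liver as well, and the part of liver-like cells in their change was not tested. ALB and FGA kept their calls without any 1 of the 5 libraries, SERPINA1 lost its without WT with BFP replicate 3 (0.0948), AHSG without ISL1-/- with ISL1 replicate 2 or 3 or WT with BFP replicate 3 (0.073) and APOA2 in each fit (0.17).

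Mesenchyme markers did not pass in any of 12 members, with 5 at an unadjusted p under 0.05, 1 lower by DESeq2 and 1 higher and 2 lower by limma voom. Their summed level was 325.2 to 560.9 CPM in ISL1-/- with BFP and 1759 to 2044 CPM in WT with ISL1. The sum was 323.2 to 410.2 CPM in ISL1-/- with ISL1 and 396.1 to 1394 CPM in WT with BFP. Of COL1A1, a collagen, WT with BFP replicate 1 had 115 and replicate 3 had 22.4 CPM. COL1A1 was 9.6, 14.6 and 22.6 CPM in ISL1-/- with ISL1, so WT replicate 3 lay within that range and WT replicate 1 above it. SEMA3D and EPHA3, named above, were higher in the WT library with more COL1A1, and the part of mesenchyme in them was not tested. Of 12 duct markers, TFF2, a trefoil peptide, rose by 3.49 from 0.676 to 7.66 CPM, SLC4A4 rose as given above, and CFTR, the chloride channel, fell by 2.83 from 122 to 17.1 CPM. KRT19, a keratin of duct and progenitor epithelium, stood at 1124 against 1173 CPM. Of 13 cardiac markers 1 passed the test, NPPB, which was lower, while 11 had a positive difference and the median was 2.41. MYH6, a cardiac myosin, stood at 17.8, 29.2 and 135 CPM in ISL1-/- with ISL1 and at 5.93 and 8.98 CPM in WT with BFP, a difference of 3.03 (adjusted p 0.105). The cardiac sum was 59.01 to 441.6 CPM against 77.62 to 124.5 CPM, so the groups overlapped, and it was 140.8 to 654.6 CPM in ISL1-/- with BFP. DESeq2 called 3 cardiac markers higher and 2 lower, and without ISL1-/- with ISL1 replicate 3 none passed and the median was 0.88. Of 8 acinar markers CEL, a lipase, fell by 1.38. LYZ, lysozyme, rose by 1.89 from 250 to 925 CPM. It was on the endothelial and blood list, which also had PECAM1, an endothelial adhesion protein, lower at 0.0171 against 0.418 CPM. In the ISL1-/- with ISL1 libraries 3 counts equal 0.0499 to 0.0553 CPM. The PECAM1 level there lies under that, so the size of its fall is uncertain. TFF2 kept its call without any 1 of the 5 libraries, LYZ lost its without either WT library (0.135), CFTR without ISL1-/- with ISL1 replicate 3 or either WT library (0.0989), and CEL and PECAM1 in each fit (0.251 and 0.175). CTTNBP2 overlaps CFTR on the other strand.

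Cell cycle genes were higher in sum, 2063 to 2577 CPM in ISL1-/- with ISL1 against 1207 to 1496 CPM in WT with BFP. Their median log2 fold change was 0.92. In the quasi-likelihood test 18 had an unadjusted p under 0.05 in either direction, as did 5824 of all 25884 tested genes. After adjustment 2 were higher and 1 lower, against 2.52% and 4.32% of all tested genes. Of 21 tested, MCM5, a replication helicase subunit, rose by 1.55 from 38.1 to 112 CPM, E2F1, a factor for entry into replication, rose by 1.46 from 13 to 35.9 CPM, and CDKN1A, the p21 inhibitor of the cell cycle, fell by 2.15 (SE 0.28, adjusted p 0.00042). CDKN1A stood at 63.9, 46.7 and 46.2 CPM against 213 and 250 CPM. MKI67, a marker of dividing cells, stood at 87, 81.2 and 68.2 CPM against 35.4 and 21.1 CPM and did not pass (1.48, adjusted p 0.0666). Without the 2 libraries of high mitochondrial share, 17 of the 21 were higher and 2 lower, while 28.4% of all tested genes changed. With 1 of the ISL1-/- with ISL1 libraries left out, 1 or 2 were higher and 1 was lower. Without WT with BFP replicate 3 the median was 0.74. CDKN1A kept its call without any 1 of the 5 libraries, MCM5 lost its without WT with BFP replicate 3 (0.17) and E2F1 without ISL1-/- with ISL1 replicate 1 or 2 or either WT library (0.303).

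Of 16 genes of the response to stress in the endoplasmic reticulum (ER), 3 were lower and none higher, with a median of -0.55. HSPA5, the chaperone BiP, stood at 1681, 1655 and 1546 CPM against 2661 and 2837 CPM and fell by 0.76 (SE 0.16, adjusted p 0.00771). DNAJB9, a co-chaperone of HSPA5, fell by 1.3 and TRIB3, a pseudokinase induced by stress, by 1.43. Without the 2 libraries of high mitochondrial share 13 of the 16 were lower, while 28.4% of all tested genes changed. With 1 of the ISL1-/- with ISL1 libraries left out, 2 or 3 were lower. Without WT with BFP replicate 3 the median was -0.54. Of 20 interferon and antigen presentation genes, IFIT1, IRF7 and OAS1 rose by 1.05, 0.83 and 0.82, while HLA-B and HLA-E fell by 1.7 and 0.82. IRF7 stood at 52.9 CPM, with 29.7 CPM in WT with BFP and 63.2 CPM in ISL1-/- with BFP. Of 19 imprinted genes, H19, a noncoding RNA, rose by 0.96, while PLAGL1, a zinc finger factor, fell by 1.89 from 111 to 30 CPM and GNAS, the stimulatory G protein alpha subunit, by 1.53 from 3238 to 1119 CPM. Of 8 pluripotency genes, PRDM14 rose as given above and ZFP42 rose by 1 from 19.2 to 38.2 CPM. POU5F1, the core pluripotency factor, did not pass. HSPA5 lost its call without either WT library (0.106), TRIB3 and PLAGL1 without WT with BFP replicate 3 (0.114 and 0.0528), IRF7 without ISL1-/- with ISL1 replicate 3 or either WT library (0.162), IFIT1 without ISL1-/- with ISL1 replicate 2 or either WT library (0.21), and DNAJB9, OAS1, HLA-B, HLA-E, H19, GNAS and ZFP42 in each fit (0.243, 0.335, 0.154, 0.235, 0.309, 0.295 and 0.236). LIPA overlaps IFIT1 on the other strand with more counts.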

How the data were processed

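Raw read counts per gene for 21 libraries (SMART-Seq v4 and KAPA EvoPrep, NovaSeq X, per the labels' protocols) were deposited by the authors in featureCounts layout, per the file headers. The submitters' processing notes name STAR 2.7.11b, featureCounts 2.1.1 and GRCh38. The annotation release, strand setting and treatment of multi-mapping reads are not given in the sources used here, so overlapping genes are named where they could share reads. The table lists 62700 genes, of which 62699 entered: ANK2, whose row runs over 3 lines, was dropped. Symbols came from a gene name table that held every ID.

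Groups were taken from the labels. Libraries carry the number of the sample description, and those of WT with BFP are 1 and 3. Genes were kept by filterByExpr (minimum count 10, total 15), scaled by TMM and tested in edgeR 4.0.16 (R 4.3.3) by the quasi-likelihood F test, in a single model of all 21 libraries with a coefficient per group. P-values were adjusted by Benjamini-Hochberg over all 25884 tested genes. Fold changes use a prior count of 0.125, and a group with 0 counts was set to 3 counts per library for a lower bound. Counting limits of this kind cover counting error only. The common biological coefficient of variation was 0.334. The pipeline was tested on simulated counts drawn with the spread of the fit itself. These do not show how the fit behaves where single libraries deviate from their group. Alternatives used DESeq2 1.42.0, limma 3.58.1 voom, other scalings, filters and sample sets, and each library left out in turn. Those of the comparison with WT with ISL1 and the counts per list were chosen after seeing the data.

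Named genes are ISL1, PAX6, PDX1, INS, GCG, SST, GHRL and PPY, the 10 largest rises and 10 largest falls (adjusted p under 0.05, at least 10 CPM in the higher group, no overlap), and for each of 32 lists up to 6 changed members and its first 2 genes. Other genes in the text were named after their values were seen: IRX2, FEV, LMX1A, HHLA2, LGR5 and the overlapping genes. The members and lists were chosen with earlier results of these data known. The results of some genes that this rule or the lists picked are not reported here.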

Additional observations from a re-analysis of the deposited data

How the results depend on the processing

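The counts depended on the fit. Of the 1772 changed genes (653 higher, 1119 lower), DESeq2 gave 3031 (1203 and 1828), limma voom 8644 (4106 and 4538), a fit of the 5 libraries alone 7745 (3590 and 4155), and a fit of the 4 ISL1-/- and WT groups 7945 (3581 and 4364). Library totals gave 653 lower genes. Without PAX6-/- with ISL1 replicate 3 there were 3127 (1308 and 1819), without PDX1-/- with ISL1 replicate 4 there were 3470 (1423 and 2047), and without both 7751 (3592 and 4159), which kept all 1772. Leaving out 1 of the 5 libraries gave from 366 to 1010 changed genes (58 to 392 higher, 308 to 618 lower), and without 1 WT library the lone sample is assumed to vary like the other groups. RLE scaling and both filters stayed within 1.5 times the count.

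Of list members, 100 changed. The number was 289 with voom, 274 with the 5 libraries, 277 with the 4 groups, 172 without PDX1-/- with ISL1 replicate 4, 264 without both, and 29 to 62 with 1 library left out. In the comparison with WT with ISL1, 962 genes changed. There were 1900 with DESeq2, 6338 with voom, 5662 with the 4 groups, 1749 and 2069 without PAX6-/- with ISL1 replicate 3 or PDX1-/- with ISL1 replicate 4, 5308 without both, and 242 to 463 with 1 library left out.

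The numbers in the descriptions give only 2 shared numbers, with correlations of deviations of 0.07 and 0.08. The 2 libraries of WT with BFP deviate from their mean by the same amount in opposite directions. These values therefore cannot decide whether the numbers in the descriptions pair the libraries. With a replicate block by that number 3740 genes changed (1628 higher, 2112 lower), 182 list members (of the cardiac markers 7 higher and 2 lower), and 2423 genes in the comparison with WT with ISL1. A block by the title's number gave 1896. The cause of these changes was not tested.

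No named gene that changed turned direction under any alternative run. Those that did had not passed. SLIT1 was -0.01 with DESeq2 and RLE, 0 with 4 groups and -0.18 to 0.24 with a library left out. STX1A was 0.11 with library totals and -0.36 to 0.05 with a library left out, and KRT19 was 0.17 with library totals and 0.03 with the block. With a library left out, CDX1 ran from -1.23 to 0.14, SLIT2 from -0.59 to 0.27 and POU5F1 from -0.03 to 1.93.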

Other observations

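Genes close to absent in 1 group and present in the other were few. At 3 counts or fewer in every library of ISL1-/- with ISL1 and at least 1 CPM in both libraries of WT with BFP there were 9 genes, 4 of them protein coding, and 5 of the 9 were also at 3 counts or fewer in every library of ISL1-/- with BFP. LINC02864 had the highest WT level of these, followed by HHLA2, an immune checkpoint ligand. In the other direction there were 2 genes, of which LGR5, a receptor of epithelial stem cells, has a symbol. These genes were named after their values were seen.

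By gene class, 454 of 16264 tested protein-coding genes were higher and 981 lower. Among 2233 antisense genes 58 were higher and 20 lower, and among 2075 processed pseudogenes 4 were higher and 19 lower. The strand setting of the counting is not given in the sources used here. By chromosome, the median log2 fold change ran from -0.096 on chromosome 4 to 0.236 on chromosome 16, with 0.217 on 19 and 0.208 on 22, and -0.181 over 25 mitochondrial genes. In ISL1-/- with BFP against WT with BFP, which shares the WT libraries, the medians for chromosomes 4, 16, 19 and 22 were -0.13, 0.21, 0.182 and 0.216. No test was made of these medians.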
